A study of Mus musculus with 2 samples.

Results

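The regions described here were 2795 Myb peaks at CpG-poor promoters, 10.8% of the 25793 peaks called in the Myb library. A peak was a member when its summit, the base with the highest read pileup, lay within 1 kb of the nearest protein-coding transcript start and the 500 bp on each side of that start had a GC content under 55% or an observed/expected CpG ratio under 0.6. Genes whose 5′ end lay within 1 kb of the 5′ end of a divergent protein-coding gene were left out. The promoters of the remaining genes are called single promoters, although starts of other genes could still lie nearby. The members were nearest to starts of 2324 genes. For comparison, 5388 peaks lay at CpG-rich single promoters, 771 at divergent promoters and 13558 more than 3 kb from any protein-coding start.

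To map Myb binding, the study performed ChIP-Seq on Lin– bone marrow of WT mice, that is marrow depleted of cells with markers of mature blood lineages and rich in stem and progenitor cells (HSPCs). Both samples were WT Lin– cells, with a purity above 80% per the labels, precipitated with an antibody against Myb or with normal rabbit IgG. There was 1 library of each kind, and the authors used the IgG library as the background when they called the peaks. The labels give neither the number of mice nor their age. In the paper's methods, the mice designated WT carried floxed Ep300 without Cre and were injected with poly(I:C). Whether this held for the mice of these libraries is not stated there. Without a replicate no difference could be tested. Intervals in parentheses are exact 95% intervals of a share, or order-statistic 95% intervals of a median. They reflect counting error alone, and they treat peaks as independent although adjacent peaks share chromatin.

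Myb is a transcription factor that stem and progenitor cells of the blood require, and it acts in part by recruiting the acetyltransferases p300 and CBP. In mammals most CpG dinucleotides are methylated and have been lost by mutation, except in CpG islands, which cover the starts of most broadly expressed genes. Promoters outside CpG islands are typical of genes expressed in few cell types, and some of them carry a TATA box.

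The members fell into 2 classes, and the label CpG-poor described only the larger. In 1829 members (65.4%) the observed/expected CpG ratio was under 0.6, and these are called CpG-depleted below. The other 966 members (34.6%) met the rule through a GC content under 55% while their CpG ratio was 0.6 or more, and these are called low-GC promoters with retained CpG. Their median observed/expected CpG was 0.731, against 0.385 in the CpG-depleted class and 0.832 at the CpG-rich promoters with a peak. Their median GC content of 52.7% was close to the 52.1% of the CpG-depleted class and below the 63.0% of the CpG-rich promoters. The limits of the rule fixed the order of the CpG ratios of these 2 classes. They also fixed the order of GC content against the CpG-rich promoters, so these gaps only describe the classes. By the CpG ratio this class was therefore not CpG-poor, and the classes are given separately wherever they differed.

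The following windows, which reach 50 bp to each side of the summit and are written 5′ to 3′ in the sense of the gene, show what the DNA under such a summit looked like. They belong to members among the strongest of the named sets whose window held a Myb motif, which stands in capitals. The motif was the word CAACGG, the word CAACTG, the word TAACGG or the word TAACTG on either strand. Capitals that read CAGTTG are the word CAACTG on the opposite strand, while CCGTTA stands there for the word TAACGG and CAGTTA for the word TAACTG. Coordinates are in mm10.
B9d2, chr7:25680520-25680620, plus strand: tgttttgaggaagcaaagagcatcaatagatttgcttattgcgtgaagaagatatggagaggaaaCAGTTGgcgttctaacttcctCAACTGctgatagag
Tgif1, chr17:70847321-70847421, minus strand: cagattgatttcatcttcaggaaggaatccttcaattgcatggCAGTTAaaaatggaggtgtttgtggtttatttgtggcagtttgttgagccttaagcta
Smim6, chr11:115911308-115911408, plus strand: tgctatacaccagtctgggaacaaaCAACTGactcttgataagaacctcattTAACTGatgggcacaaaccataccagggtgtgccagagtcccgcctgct
Eef2k, chr7:120851798-120851898, plus strand: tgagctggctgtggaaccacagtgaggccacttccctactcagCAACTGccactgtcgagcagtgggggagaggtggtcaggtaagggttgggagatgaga
Evi2b, chr11:79523612-79523712, minus strand: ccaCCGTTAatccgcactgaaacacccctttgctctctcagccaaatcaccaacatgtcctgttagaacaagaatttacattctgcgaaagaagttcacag
Mpo, chr11:87793412-87793512, plus strand: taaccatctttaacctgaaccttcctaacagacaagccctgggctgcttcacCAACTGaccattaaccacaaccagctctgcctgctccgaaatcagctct
Car1, chr3:14808502-14808602, minus strand: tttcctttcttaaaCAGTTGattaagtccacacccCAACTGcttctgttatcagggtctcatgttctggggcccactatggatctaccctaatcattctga
Ctsg, chr14:56102544-56102644, minus strand: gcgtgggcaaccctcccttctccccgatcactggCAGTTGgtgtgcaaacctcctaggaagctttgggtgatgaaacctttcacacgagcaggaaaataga
Igll1, chr16:16864121-16864221, minus strand: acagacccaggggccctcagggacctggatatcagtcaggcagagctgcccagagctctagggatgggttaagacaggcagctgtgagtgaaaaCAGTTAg

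In 3 of these windows, at B9d2, Smim6 and Car1, the motif occurred 2 times, and in each of the other 6 it occurred once. B9d2, which encodes a protein of the ciliary transition zone, had the strongest of these peaks, with a fold enrichment of 20.5 over IgG from 74 reads. The weakest was at Igll1, which encodes a part of the pre-B cell receptor, with a fold enrichment of 3.75 from 11 reads (5.49–19.7). The windows of Mpo, Ctsg and Car1 belong to genes of granulocytes and red cells and are described with their lists.

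To ask how often Myb was found at these promoters, single-promoter genes were counted with and without a summit within 1 kb of a start. Of all 20371 single-promoter genes, 6530 (32.1%) had a peak. Among the 11724 genes whose starts were all CpG-poor, 1743 had a peak, a share of 14.9% (14.2–15.5). The share among the 4649 genes whose starts were all CpG-rich was 53.7% (52.2–55.1). The low share came from the CpG-depleted class. Of 10417 genes with every start under the CpG ratio of 0.6, 978 had a peak, or 9.39% (8.84–9.96). Of 878 genes with every start in the low-GC class with retained CpG, 527 had a peak, or 60.0% (56.7–63.3), and this interval lay above that of the CpG-rich promoters.

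The share rose with the CpG ratio at the gene's 5′ end in both GC classes. With a GC content under 55% it was 6.10% at ratios of 0 to 0.2, 14.9% at 0.2 to 0.4, 26.4% at 0.4 to 0.6, 56.1% at 0.6 to 0.8 and 74.4% at 0.8 to 1.0. With a GC content of 55% or more it was 10%, 13.8%, 24.1%, 45.7% and 64.8% over the same ranges. At ratios of 0.6 or more, the low-GC promoters had the higher share in each range, and the intervals did not overlap. Within each range, the GC classes thus differed far less than the lowest and highest ranges of the CpG ratio did. Taken alone, GC content also separated promoters. Genes with every start under 55% had a share of 14.1%, and genes with none under it had 44.5%. For the CpG ratio of 0.6 alone the shares were 9.39% and 55.4%.

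**Figure D1:**
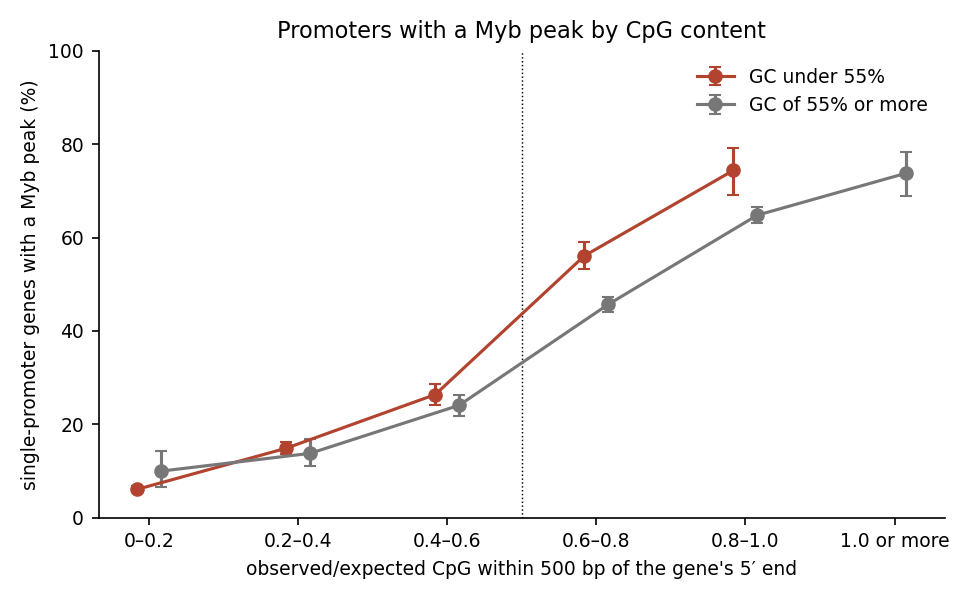
Percentage of single-promoter genes with a Myb summit within 1 kb of a start (y axis) by the observed/expected CpG ratio within 500 bp of the gene's 5′ end (x axis), for GC contents under 55% (red) and of 55% or more (gray). Bars are exact 95% intervals, and the dotted line marks the ratio of 0.6. The share rises from 6.10% to 74.4% at low GC, and 14 genes outside the bins shown are not drawn.

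Most of these peaks were weak, as were the peaks elsewhere. The median fold enrichment over IgG was 4.60 (4.48–4.68), the quartiles were 3.71 and 5.91, and the range was 1.90 to 30.0. A median of 19 reads lay at the summit, with a range of 8 to 106. CpG-depleted members had a median fold enrichment of 4.48 (4.44–4.60), and low-GC members with retained CpG had 4.77 (4.67–4.88). These compare with 4.72 (4.69–4.78) at CpG-rich single promoters and 4.48 (4.47–4.52) at peaks more than 3 kb away from a start. The CpG-depleted class thus lay slightly below both other promoter classes, and the class with retained CpG overlapped the CpG-rich one. In 125 members (4.47%) the fold enrichment was 10 or more, and in 206 (7.37%) the q-value was above 0.05, the limit that the methods give for the calls from pseudo-replicates (random subsets of reads) behind this list. Over all peaks these shares were 4.47% and 7.24%, so the members did not differ from the whole list here. The median member was 628 bp wide, and 128 members (4.58%) were wider than 2000 bp, against 3.36% of all peaks.

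Summits of the members sat close to the start. The median distance was 183 bp, and 30.7% (29.0–32.4) of the summits lay within 100 bp of it, against 23.8% (22.6–24.9) at CpG-rich single promoters. The low-GC class with retained CpG was the closest, with a median of 139.5 bp and 35.9% (32.9–39.0) within 100 bp. CpG-depleted members had a median of 219 bp and 27.9% (25.8–30.0) within 100 bp. About as many summits lay upstream of the start as downstream, with 48.8% (46.9–50.6) upstream. By annotation, 1139 summits (40.8%) fell in an intron, 781 (27.9%) upstream of or outside the gene, 673 (24.1%) in a 5′ UTR, 174 (6.23%) in a coding exon and 28 (1.00%) in a 3′ UTR. Many CpG-depleted starts were internal starts of a gene. The 5′ end of a gene was within 1 kb of the summit for 60.6% of the CpG-depleted members, but for 86.7% of those with retained CpG and 85.1% of the peaks at CpG-rich promoters. A CpG-rich start of some gene lay within 1 kb of 314 members (11.2%) as well, and their median fold enrichment of 4.52 (4.34–4.83) overlapped that of the other members.

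**Figure D2:**
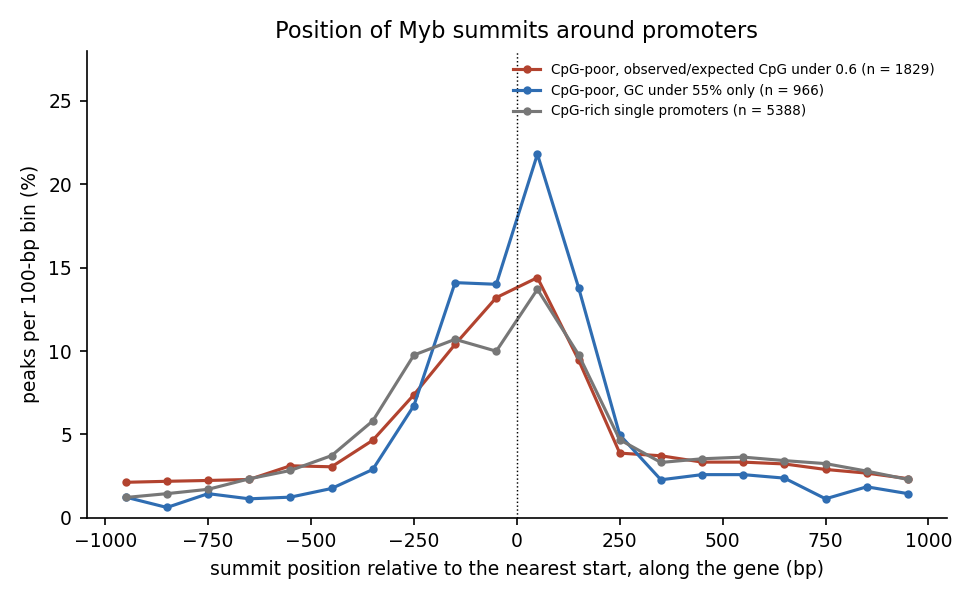
Percentage of peaks per 100-bp bin (y axis) by the position of the summit relative to the nearest protein-coding start in bp (x axis, positive values inside the gene), for CpG-depleted members (red), low-GC members with retained CpG (blue) and CpG-rich single promoters (gray). The blue class is the most concentrated, with 35.9% of its summits within 100 bp of the start against 27.9% of the red class and 23.8% of the gray class.

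The strongest 20 members held 9 CpG-depleted promoters and 11 with retained CpG. The highest fold enrichment, 30.0 from 106 reads (86.8–128), was at Hhex, which encodes a homeobox factor of progenitor cells. This peak (chr19:37434237-37437181) lay in an intron, 957 bp upstream of an internal start, and was also within 1 kb of a CpG-rich start. Hist1h3d (21.0, chr13:23574715-23575955), Atf7ip (20.7, chr6:136517731-136520152) and B9d2 (20.5, chr7:25680053-25681909) followed, all of the class with retained CpG. The Hist1h3d peak, like that of Mdc1 (16.2), was within 1 kb of a CpG-rich start too. Atf7ip encodes a partner of the histone methyltransferase SETDB1, and its summit lay 36 bp inside the gene in the 5′ UTR.

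Among the CpG-depleted promoters, Cnot6l (19.4, 73 reads, chr5:96162329-96164628), which encodes a deadenylase of the CCR4-NOT complex, came after Hhex. Mettl7a1 had a fold enrichment of 18.2 from 57 reads, with a summit in a soft-masked repeat, as had Spn and Atxn7l1 below. Tgif1, which encodes a homeobox repressor of TGF-β signaling, had 17.8 from 66 reads. Smim6 had 17.6 from 73 reads. Spn, which encodes the leukocyte sialoglycoprotein CD43, had 17.2 from 88 reads (70.6–108) at chr7:127136129-127138509. Nfe2, which encodes a subunit of the factor NF-E2 of megakaryocytes and red cells, had 17.0 from 94 reads (76.0–115) at chr15:103257468-103259463, 191 bp upstream of the start. The next were Atxn7l1 with 15.9 and Eef2k, the kinase of elongation factor 2, with 15.6. For most of these peaks the intervals of the read numbers overlapped, and the order among them was not resolved.

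The remaining members of the strongest 20 had retained CpG. They were Pkd2l2 (18.4), Nop58 (17.4), which encodes a protein of the box C/D small nucleolar ribonucleoproteins, Hist1h2bb (17.3), Hist1h3i (17.0), Alyref2 (16.8), Hist1h4c (16.0) and Hist1h4h (15.5). A Myb motif lay within 50 bp of the summit in 5 of the 20. These values rank peaks within 1 library and were not compared with a replicate.

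To describe which kinds of genes carried these peaks, 15 gene lists were counted, and the list members were looked up among the CpG-poor single-promoter genes, of which 14.9% had a peak over all such genes. Over 10 lists of blood cell and interferon genes, 93 of 252 CpG-poor promoters (36.9%, 30.9–43.2) had a peak. Almost all of these promoters, 248, were CpG-depleted, and 89 of them (35.9%, 29.9–42.2) had a peak, against 889 of the 10169 other CpG-depleted promoters (8.74%, 8.20–9.31). Of 68 CpG-poor promoters of liver, epidermal and skeletal muscle genes, 0 had a peak, which allows a share of up to 5.28%. Of 1477 promoters of chemosensory receptors, 7 had a peak (0.474%, 0.191–0.974).

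**Figure D3:**
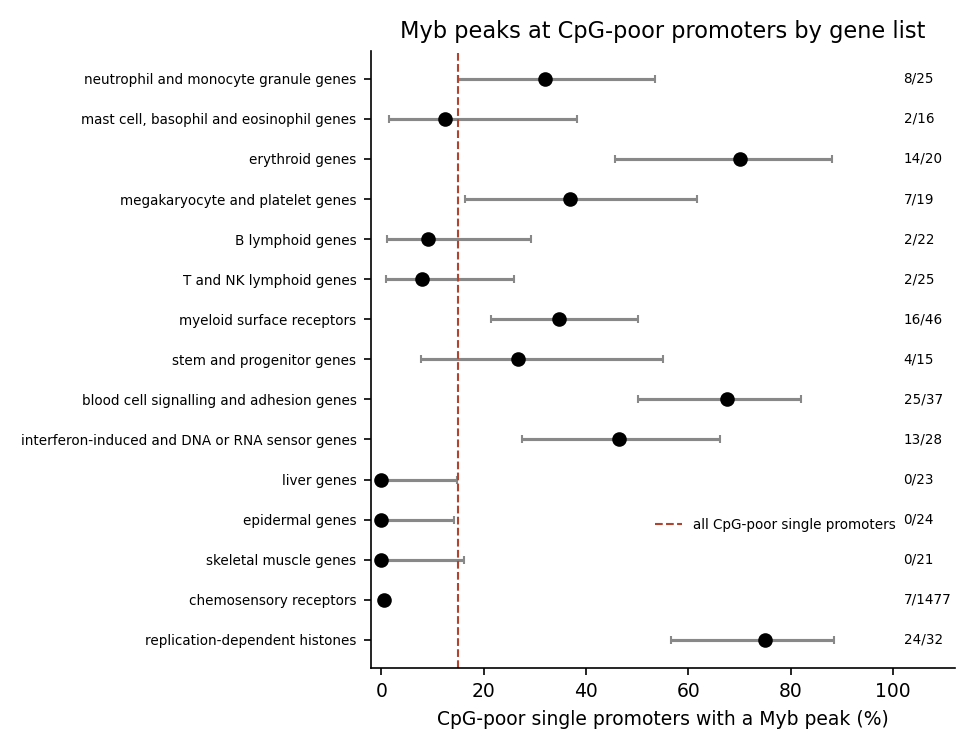
Percentage of the CpG-poor single promoters of each gene list with a Myb summit within 1 kb of a start (x axis), with exact 95% intervals and, at the right, the number of promoters with a peak over the number in the list. The dashed line is the share over all CpG-poor single promoters, 14.9%. Histone, erythroid and signaling genes lie at 67.6% to 75.0%, and liver, epidermal and muscle genes at 0. Most of the histone promoters have retained CpG, a class whose share is 60.0%.

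Erythroid genes had peaks at 14 of 20 CpG-poor promoters (70.0%, 45.7–88.1), all of them CpG-depleted. The strongest was at Car1, carbonic anhydrase 1, with a fold enrichment of 11.1 from 42 reads (30.3–56.8), 184 bp upstream of the start. Epor, the erythropoietin receptor, had 10.5 with a summit 34 bp upstream. Ank1, the red cell ankyrin, had 10.2 at a CpG-poor start of a gene that also has a CpG-rich start. Peaks were also found at the promoters of the erythroid regulators Klf1 (5.64) and Gata1 (4.47) and of the blood group gene Rhag (2.97). The 6 CpG-poor erythroid promoters without a peak were those of Alas2, Slc4a1 and the globin genes Hba-a1, Hba-a2, Hbb-bs and Hbb-bt. Reads of low mapping quality had been discarded, which can remove reads from near-identical genes such as Hba-a1 and Hba-a2, and the part of this filter was not tested.

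Neutrophil and monocyte granule genes had peaks at 8 of 25 promoters (32.0%, 14.9–53.5), all CpG-depleted. Mpo, which encodes myeloperoxidase of the azurophil granules, had the strongest, with a fold enrichment of 11.3 from 42 reads (30.3–56.8) at chr11:87793243-87793985, 119 bp upstream of the start. Ctsg, cathepsin G of the same granules, had 9.06 from 30 reads (20.2–42.8), 20 bp upstream. Mmp8, the neutrophil collagenase, had 8.53 from 26 reads, 37 bp upstream, and Ms4a3 had 7.28 from 22 reads, 81 bp upstream. The azurophil proteases Elane and Prtn3 were weaker, with 4.75 and 4.72. The other 17 promoters, among them those of Camp, Ltf, Lcn2, Lyz2 and Cebpe, had no peak.

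Megakaryocyte and platelet genes had peaks at 7 of 19 promoters (36.8%, 16.3–61.6). Nfe2 was the strongest, as given above, and had 5 member peaks. The platelet membrane glycoprotein Gp5 had 8.48, the integrin subunit Itga2b 6.97, the repressor Gfi1b 5.56 and platelet factor Pf4 5.05. Mast cell, basophil and eosinophil genes had peaks at 2 of 16 promoters (12.5%, 1.55–38.3), those of the mast cell carboxypeptidase Cpa3 (5.09, 15 reads) and the basophil protease Mcpt8 (2.97, 18 reads).

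Lymphoid promoters, all CpG-depleted, had peaks at about the 9.39% share of the CpG-depleted class. B lymphoid genes had peaks at 2 of 22 promoters (9.09%, 1.12–29.2), Igll1 and the recombinase gene Rag2 (3.41, 12 reads). T and NK lymphoid genes had peaks at 2 of 25 (8%, 0.984–26.0). Of these, the summit at Cd3d, which encodes a CD3 chain of the T cell receptor complex, lay 879 bp inside the gene in its 3′ UTR (6.49). The peak at the adaptor gene Lat had a fold enrichment of 3.56. Both intervals overlapped those of the granule, megakaryocyte and mast cell lists.

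Myeloid surface receptors had peaks at 16 of 46 promoters (34.8%, 21.4–50.2). Cxcr4, the receptor that retains progenitors in the marrow, had the strongest at 13.3 from 63 reads (48.4–80.6), in the class with retained CpG. The lectin gene Clec12a had 11.1 with a summit 24 bp inside the gene, the sialic acid receptor gene Cd33 had 9.05 and the macrosialin gene Cd68 had 6.56. Stem and progenitor genes had peaks at 4 of 15 promoters with CpG-poor starts only (26.7%, 7.79–55.1), and genes with both kinds of starts brought the number with a member peak to 9. After Hhex, the strongest were the transcription factor genes Spi1, which encodes PU.1, with 14.8 from 59 reads (44.9–76.1) at 629 bp inside the gene, Runx1 with 9.26 from 37 reads at 184 bp, and Erg with 7.47 from 26 reads at 6 bp.

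Blood cell signaling and adhesion genes had peaks at 25 of 37 promoters (67.6%, 50.2–82.0), all CpG-depleted. Spn came at the head of this list, followed by the phagocytosis checkpoint ligand Cd47 (12.2 from 78 reads, at a CpG-poor start of a gene that also has a CpG-rich one), Evi2b (11.9 from 45 reads) and the adaptor gene Dok3 (10.1 from 37 reads). The summit at Evi2b lay 100 bp inside the gene in the 5′ UTR. Interferon-induced genes and DNA or RNA sensors had peaks at 13 of 28 promoters (46.4%, 27.5–66.1), but these were weak, with a median of 4.11 for the strongest peak of each gene. The guanylate-binding protein gene Gbp3 (7.0), the RNA sensor gene Ifih1 (5.72) and the immunity-related GTPase gene Irgm1 (5.22) were among the strongest.

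Replication-dependent histone genes had peaks at 24 of 32 CpG-poor promoters (75.0%, 56.6–88.5), and their peaks were strong. The median over the 21 histone genes with a member peak was 11.2 for the strongest peak of each gene, against 3.58 to 6.69 in the blood lists and 4.80 (4.69–4.90) over all 2324 genes. By the CpG ratio these promoters were not CpG-poor, since only 2 of the 32 were CpG-depleted. Of the 30 with retained CpG, 23 had a peak. The 60.0% share of all promoters with retained CpG lay inside the interval of the histone share, which thus did not stand out from its class. Many histone genes lie in clusters within a few kb of each other, so 1 summit can fall near several starts. Of the 1501 genes with a CpG-depleted member, 101 were in the blood lists and 1 was a histone gene. Of 855 genes with a member with retained CpG, 6 were in the blood lists and 20 were histone genes. The list promoters were already split in this way before peaks were considered. In the blood lists, 248 CpG-poor promoters were CpG-depleted and 3 had retained CpG. The division of the list genes between the classes is therefore not a result about the peaks. Within the CpG-depleted class, 35.9% of the blood list promoters had a peak, against 8.74% of the other promoters.

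Of the chemosensory receptor genes, 6 had a member peak. The strongest were at Olfr1509 (8.28, in the 3′ UTR), Olfr646 (7.26), Olfr433 (5.89) and Olfr417 (5.09), with 15 to 37 reads at their summits.

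**Figure D4:**
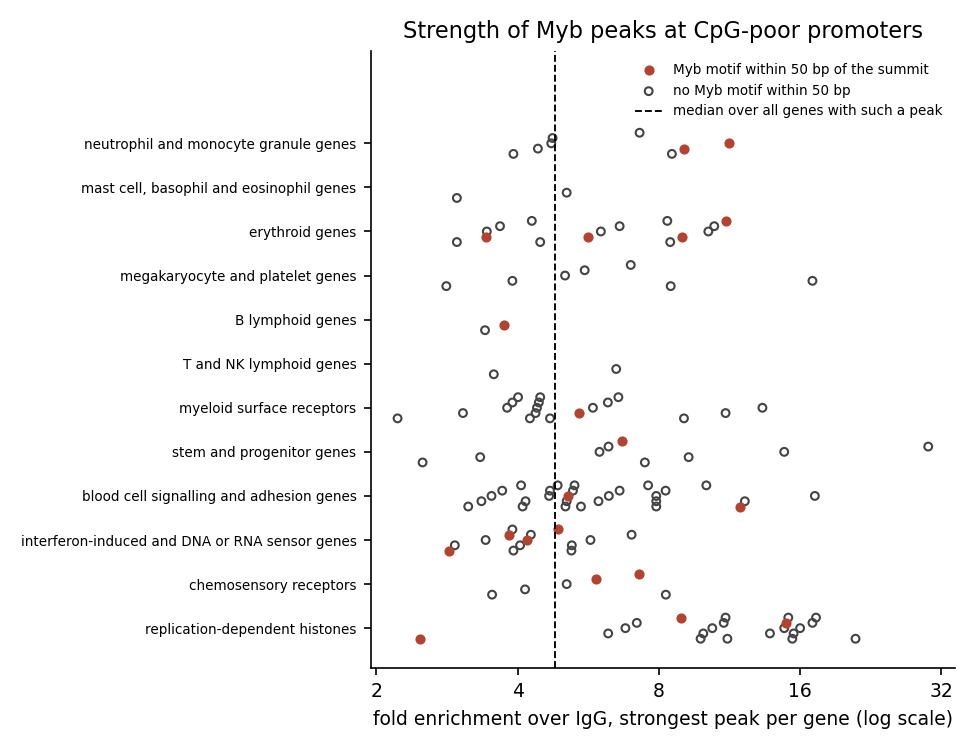
Fold enrichment over IgG on a log axis (x axis) of the strongest CpG-poor promoter peak of each gene, by gene list (rows, each point 1 gene, spread vertically for legibility). Filled points have a Myb motif within 50 bp of the summit, and the dashed line is the median of 4.80 over all 2324 genes. Histone genes have a median of 11.2, and Hhex at 30.0 is the highest point.

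To see whether the sequence Myb recognizes lay under these summits, the 4 motif words were counted within 50 bp of each summit and in equal windows 500 bp to either side. A motif was present at 455 members, or 16.3% (14.9–17.7), against a mean of 10.9% in the flanks, a ratio of 1.49. At CpG-rich single promoters the share was 10.9% (10.1–11.7) against 9.14% in the flanks, a ratio of 1.19. The CpG-depleted members had the motif in 17.2% (15.5–19.0), a ratio of 1.59 to their flanks, and the members with retained CpG in 14.5% (12.3–16.9), a ratio of 1.31. Windows tiled over CpG-poor promoters without a peak held it in 10.5%. The share at members thus lay above the CpG-rich promoters and above each of these backgrounds, yet 2340 members had no motif in the window. Peaks more than 3 kb from a start had it in 19.1% (18.4–19.8). At divergent promoters the share was 15.3%, a ratio of 1.50 to their flanks, and over all peaks it was 16.7%, a ratio of 1.59. The share of 16.3% at members was close to both, so the motif did not set the members apart from Myb peaks in general.

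The motif was more frequent at the stronger CpG-depleted peaks. Over groups of rising fold enrichment, split at 3.71, 4.60 and 5.91, the share was 14.9%, 12.9%, 17.7% and 24.1% (20.2–28.5), and the interval of the strongest group did not overlap those of the lowest 2 (11.8–18.4 and 10.1–16.3). In the class with retained CpG the shares were 12.1%, 14.2%, 16.0% and 15.3%, with overlapping intervals. The motif words that hold no CpG differed most between promoter classes. CAACTG was present at 7.76% of CpG-depleted members against 3.79% of peaks at CpG-rich promoters, and TAACTG at 6.18% against 2.69%. The flanks of these classes differed in the same direction, with 5.36% against 3.47% for CAACTG and 3.75% against 3.09% for TAACTG. The classes were defined by base composition, and its part in these differences was not tested. The words with a CpG were rarer but stood further above their flanks, with a ratio of 2.22 for CAACGG (80 members) and 1.94 for TAACGG (61 members), against 1.40 for CAACTG and 1.36 for TAACTG over all members.

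**Figure D5:**
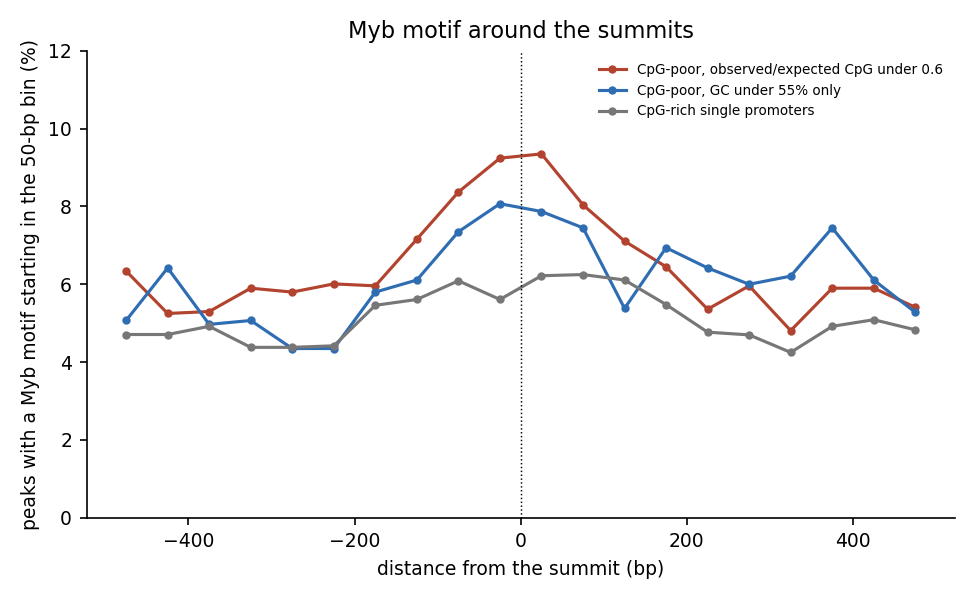
Percentage of peaks with a Myb motif starting in each 50-bp bin (y axis) by distance from the summit in bp (x axis), for CpG-depleted members (red), low-GC members with retained CpG (blue) and CpG-rich single promoters (gray). In the red class the share is 9.24% and 9.35% in the bins on either side of the summit and lies between 4.81% and 6.45% at 150 bp or more from it.

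The motifs of other factors of blood cells divided the classes too. The GATA motif, AGATAA or TGATAA on either strand, was present at 11.9% (10.4–13.4) of CpG-depleted members against 7.63% in their flanks and 9.62% of windows at CpG-depleted promoters without a peak. It was present at 5.90% (4.50–7.58) of the members with retained CpG and at 4.31% (3.78–4.88) of peaks at CpG-rich promoters. The flank share of 7.45% lay inside the interval for the members with retained CpG, and that of 5.64% lay above the interval for the CpG-rich promoters. GATA factors include the regulators of red cells and megakaryocytes. The PU.1 motif GAGGAAGT, of a factor of myeloid cells, was rare but present at 1.42% (0.931–2.08) of CpG-depleted members against 0.519% in the flanks. The ETS motif CCGGAAGT, which holds a CpG, was present at 2.80% (1.85–4.04) of the members with retained CpG against 0.569% in their flanks, and at 0.765% (0.419–1.28) of CpG-depleted members against 0.246%. The RUNX motif TGTGGT was at 8.64% of CpG-depleted members, and its flank share of 7.68% lay inside the interval of that value.

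Of the other motifs, the GC box GGGCGG was present at 9.73% (8.66–10.9) of the members against 6.30% in the flanks and at 19.0% of peaks at CpG-rich promoters. The CEBP motif TTGCNNAA was at 5.33% (4.53–6.23) against 4.35%, the E-box CAGCTG or CAGATG at 11.2% (10.1–12.5) against 9.98%, NFY CCAAT at 12.5% (11.2–13.7) against 12.4%, and IRF GAAANNGAA at 3.47% (2.82–4.22) against 3.35%. Windows at CpG-poor promoters without a peak held the GC box in 4.53%, CEBP in 4.13%, the E-box in 12.2%, NFY in 14.1% and IRF in 3.41%, so that the E-box and NFY were not more frequent under the members than there. The NRF1 motif GCGCATGC was rare, at 0.572% (0.328–0.928) of the members, against 0.233% in the flanks. The AP-1 motif TGACTCA was at 1.72% (1.27–2.27) against 1.48%, and CCACACCC, bound by factors of the KLF family, at 1.22% (0.844–1.70) against 0.877%, with the flank shares inside the intervals for AP-1 and CCACACCC. Members with a Myb motif had a GATA motif in 14.1% (11.0–17.6) and those without in 8.97% (7.85–10.2). In 15 of the 64 windows with both, however, every GATA match shared bases with a Myb match, and a separate GATA motif was present in 10.8% (8.07–14.0) of the windows with a Myb motif.

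CpG-poor promoters with a peak rarely had a TATA box. TATAAA or TATATA lay 40 to 20 bases before the 5′ end of 16 of the 978 CpG-depleted genes with a peak (1.64%, 0.938–2.64), against 591 of 9439 without (6.26%, 5.78–6.77). The nearest starts of all members had it in 1.68% (1.24–2.23) and those of peaks at CpG-rich promoters in 0.984% (0.738–1.28), and these intervals overlapped. Repeats covered 13.6% of the bases around CpG-poor starts with a peak and 17.5% around those without. At the summit itself, 8.87% of members (7.84–9.99) lay in a soft-masked repeat, against 6.01% (5.39–6.68) at CpG-rich promoters and 13.4% (12.8–14.0) more than 3 kb from a start.

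The limits of the rule cut through a continuum. The peaks just inside the GC limit were those of Gtf2b and Zfp212, at a GC content of 54.9451% and fold enrichments of 10.3 and 9.71, and just outside were Bcl2l12 and Fastkd5, at 55.0450% with 14.5 and 8.54. Just inside the CpG ratio of 0.6 were 2 peaks of Zfp62 (0.5996), with 4.85 and 2.09, and just outside were Mfsd4b3 (0.6001) with 4.48 and S1pr1 (0.6002) with 9.25. By distance, Zfp219 at 1000 bp (2.12) and St3gal4 at 998 bp (4.48) were inside, and Il12a and Cmklr1 at 1001 bp (5.07 and 4.97) were outside.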

How the data were processed

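The deposited peak list of the WT Myb library, called against the WT IgG library, was the only file, and titles gave the groups. Per the methods, the authors trimmed adapters (cutadapt 1.15), aligned to mm10 (BWA 0.7.13), deduplicated (Picard), dropped poorly mapped and blacklisted reads, and called peaks from pseudo-replicates with a q-value under 0.05 (MACS2 2.1.1.20160309). The deposited fold enrichment is the ratio of Myb pileup to local IgG background at the summit, with the same constant added to both. Several of the strongest peaks, such as those of Hist1h3d, Atf7ip and Mettl7a1, had the lowest background of all, 1.46. Their rank depends on this floor. Each peak's p-value and its q-value are in the deposited list on a −log10 scale. The score repeats the deposited p-value and was not used.

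Summits were assigned to the nearest of 54361 protein-coding transcript starts of 21938 genes (GENCODE vM21), and GC content, CpG ratios and motifs were read from the GRCm38 sequence (soft-masked) with Python 3.11.15, NumPy 2.4.6, SciPy 1.17.1 and pandas 2.3.3. The observed/expected CpG ratio is the number of CpG dinucleotides times the length, divided by the product of the C and G counts. A gene was CpG-poor when all its starts were, CpG-rich when none was, and mixed otherwise. The library totals are not in the peak list. Reads behind each summit were recovered from the fold enrichment and −log10 p-value, which gave whole reads in 100% of the peaks within 0.0002 of the −log10 p-value, after the Myb pileup had been scaled by 0.769. Their exact Poisson 95% intervals cover counting error only. Steps were tested on simulated data.

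Named genes were the 20 members with the highest fold enrichment, the 4 strongest of each list, and the peaks nearest to each limit of the rule. Some genes under this rule are not reported here. Other genes named with a list were chosen after their values were seen. The members and lists were chosen with earlier results of these data known, so no list is independent evidence. The symbols Ahsp, Clec7a and Mx2 were not matched. No test was run, because 1 library gives no spread between replicates. Alternatives changed the peak threshold, the distance, the definition of CpG-poor, the handling of divergent genes, the motif and its window.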

Additional observations from a re-analysis of the deposited data

How the results depend on the processing

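The share of CpG-poor single promoters with a peak stayed below that of CpG-rich promoters in all 11 settings, the reported one included. Requiring −log10 q of at least 2 gave a share of 13.3% and a median fold enrichment of 4.90, and requiring at least 5 left 1259 members, a share of 7.58%, a median of 6.10, a motif share of 19.7% and a blood list share of 20.2%. Keeping q-values up to 0.05, the limit in the methods for calls from pseudo-replicates and a setting added here after seeing the data, gave 14.0% and a median of 4.72, and the list thresholds were added then too. The CpG ratio alone left 1829 members and a share of 9.39%, GC alone gave 14.1%, and both together left 1253 members, a share of 7.01% and a motif share of 18.4%. Summits within 500 bp gave 12.9%, composition over 250 bp gave 10.3%, either order of opposite 5′ ends gave 14.2%, and any base of the peak within 1 kb gave 15.7%. The strongest peak of each gene had a median fold enrichment of 4.80. The motif share was 9.16% within 25 bp, 28.8% within 100 bp, 53.4% for the looser letters AACNG and 9.55% for CAACTG or CAACGG alone. The other settings moved these results by less than their intervals, or the count by less than 1.5 times. No paired analysis was possible because there was 1 sample per group. The median summit held 19 reads, and a promoter without a peak may hold Myb below detection, which was not tested.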

Other observations

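Some list genes without a peak at their CpG-poor promoter had a Myb peak elsewhere in the gene or within 10 kb of it, and the share varied by list. Over all 9981 CpG-poor single promoters without a peak, 2146 genes (21.5%) had such a peak. All 12 blood cell signaling and adhesion genes without a promoter peak had one, among them the kinase gene Btk and the phosphatase gene Ptpn6. So did 8 of 11 stem and progenitor genes, such as Cd34 and Procr, 8 of 12 megakaryocyte genes, such as Vwf, and 18 of 30 myeloid receptors, such as Itgam. Of the B lymphoid genes, whose promoters had few peaks, 11 of 20 had a peak nearby, including the early B cell genes Ebf1, Vpreb1 and Dntt. The share was 8 of 23 for T and NK lymphoid genes, 5 of 17 for granule genes, 3 of 6 for erythroid genes (Alas2, Slc4a1 and Hbb-bt), 5 of 14 for mast cell, basophil and eosinophil genes and 2 of 15 for interferon-induced genes. It was 4 of 23 for liver genes, 2 of 24 for epidermal genes, 5 of 21 for muscle genes, 30 of 1470 for chemosensory receptors and 7 of 8 for histone genes. Peaks outside the promoter depend on gene length, which was not taken into account.

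The shares of gene families with at least 30 CpG-poor promoters, a grouping by symbol chosen after seeing the data, can be set beside the 14.9% over all CpG-poor promoters, the 9.39% of the CpG-depleted and the 60.0% of those with retained CpG. Zinc finger genes (Zfp) had a peak at 59 of 226 promoters (26.1%, 20.5–32.3) and Wdr genes at 17 of 30 (56.7%, 37.4–74.5). The Zfp share did not stand out, with 29.4% for Atp, 28.9% for Trim, 26.9% for Ccdc and 25.0% for Tmem genes. Among CpG-depleted promoters alone the counts were 32 of 172 for Zfp and 8 of 15 for Wdr. They were 5 of 29 for Atp, 10 of 35 for Trim, 10 of 59 for Ccdc and 14 of 90 for Tmem. With retained CpG the counts were 19 of 34 for Zfp and 6 of 10 for Wdr. Of families that were almost all CpG-depleted, cytochrome P450 genes (Cyp) had one at 2 of 90, and 0 of 330 vomeronasal receptor (Vmn), 0 of 57 keratin-associated protein (Krtap), 0 of 53 keratin (Krt) and 0 of 42 β-defensin (Defb) promoters had one. By chromosome, the share of CpG-poor promoters with a peak was 10.4% to 21.4% over the autosomes and 7.15% (5.37–9.30) on X. Several member peaks per gene were found at Hk1, the gene of hexokinase 1, with 6, and at Adgrg1, Atf7ip, Nfe2 and Tcf4 with 5 each. Most genes, 1938 of 2324, had 1.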
